A study of Homo sapiens with 8 samples.

Results

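The RNA-binding decay triggers are proteins that bind short elements in the 3′ UTRs of mRNAs and set how fast these mRNAs are degraded. The set was chosen by name and held 9 genes (NANOS1, PUM2, ZFP36, ZFP36L1, ZFP36L2, RC3H1, RC3H2, ELAVL1 and KHSRP), of which 8 were among the 10105 genes of the count table. ZFP36, which encodes tristetraprolin (TTP), was not analysed here. Total mRNA (RNA-Seq) and ribosome-protected fragments (RPF, Ribo-Seq) were measured in HEK293T cells, a transformed line derived from human embryonic kidney. WT cells were compared with XRN1-null cells, in which the gene of the 5′–3′ exonuclease XRN1 had been edited with CRISPR/Cas9, with 2 biological replicates of each genotype in each assay and 8 libraries in all. Neither cell line had received a treatment according to the labels, and cells of both genotypes were harvested 24 h after seeding on dishes of 15 cm. The XRN1-null cells were a single edited line, so the loss of XRN1 and other features of that line cannot be told apart.

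An mRNA is usually degraded by shortening of its poly(A) tail, removal of the 5′ cap and digestion of the body by XRN1. Most of the proteins studied here act at the first of these steps by recruiting the CCR4-NOT deadenylase. Nanos and Pumilio proteins act together on mRNAs that hold the Pumilio element, the TTP family binds AU-rich elements, and Roquin proteins bind stem-loops. HuR, the product of ELAVL1, binds U-rich and AU-rich sequences and is best known for stabilising mRNAs, whereas KSRP, the product of KHSRP, promotes their decay. The comparison therefore asks whether the genes of these factors were expressed differently in cells edited in the gene of the last enzyme of this pathway.

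Several members carry in their own 3′ UTRs the elements that members bind. The AU-rich heptamer TATTTAT and the Pumilio element TGTANATA were searched on the sense strand of the 3′ UTR of 1 GENCODE transcript per gene (GRCh37). The heptamer was found 1 time in NANOS1, 1 time in PUM2, 3 times in ZFP36L1, 3 times in ZFP36L2, 2 times in RC3H1, 5 times in RC3H2 and 5 times in ELAVL1, and 0 times in KHSRP. The Pumilio element was found 2 times in each of PUM2, RC3H1 and RC3H2 and 0 times in the other members. Among the 9311 genes of the table with a 3′ UTR sequence, 35.9% held the heptamer and 30.7% held the Pumilio element. Members with long 3′ UTRs have more room for such matches, and the 3′ UTR of RC3H1 was 7637 nt long, against a median of 1323 nt over all genes. A match is a description of the sequence and not a bound site.

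The sites of NANOS1, RC3H1 and PUM2 are shown because their mRNA or footprint values differed most between the genotypes or, for PUM2, because the gene holds the element that its own product binds, and a pair of the clustered ELAVL1 sites is shown for its spacing. The matched element is in capitals, with 8 bases on either side, read 5′ to 3′ on the strand of the gene.
NANOS1 heptamer, chr10:120790995-120791017, plus strand: aaattgtgTATTTATacagtaac
RC3H1 heptamer nearest the stop codon, chr1:173904495-173904517, minus strand: gggaatttTATTTATagcgagaa
RC3H1 heptamer farther from it, chr1:173902824-173902846, minus strand: gatttttaTATTTATttgttgct
RC3H1 Pumilio element nearest the stop codon, chr1:173906048-173906071, minus strand: gctatatcTGTATATAtattgggt
RC3H1 Pumilio element farther from it, chr1:173900415-173900438, minus strand: ttttggatTGTAAATAtatgaaaa
PUM2 heptamer, chr2:20451217-20451239, minus strand: agcaaaacTATTTATtgacttta
PUM2 Pumilio element nearest the stop codon, chr2:20450906-20450929, minus strand: tatagagaTGTATATAgaattata
PUM2 Pumilio element farther from it, chr2:20450646-20450669, minus strand: agaaatatTGTATATActtacata
ELAVL1 heptamer nearest the stop codon, chr19:8026749-8026771, minus strand: gatggctgTATTTATctgtttat
ELAVL1 heptamer farthest from it, chr19:8026715-8026737, minus strand: tatgtattTATTTATtgaagtgt
The 5 heptamers of ELAVL1 began between 1604 and 1638 nt after the stop codon, and those at 1634 and 1638 nt overlapped each other. The other members with several heptamers had them spread over longer stretches, as in RC3H2, where they began between 411 and 3333 nt after the stop codon.

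The RNA-Seq libraries held between 33757487 and 38145433 counts and the Ribo-Seq libraries between 1921641 and 4399542, the lowest being WT Ribo-Seq replicate 1. Values per library are given as CPM, counts scaled to TMM-adjusted library totals, and a gene was called changed at a false discovery rate (FDR) below 0.005 in edgeR's quasi-likelihood test over all 10105 genes. Replicates agreed least in Ribo-Seq of WT cells, where the log2 ratio of the replicates had an SD of 0.37 over all genes, against 0.25 in Ribo-Seq of XRN1-null cells, 0.17 in RNA-Seq of WT cells and 0.09 in RNA-Seq of XRN1-null cells. XRN1 mRNA was at 33.5 and 33.0 CPM in WT and at 282 and 253 CPM in XRN1-null libraries, 8.03-fold higher in the edited cells. XRN1 footprints were at 34.4 and 49.8 CPM in WT and at 22.6 and 18.4 CPM in XRN1-null libraries, and footprints per mRNA fell by 4.09 on the log2 scale (SE 0.22, FDR 1.66e-06). The edit need not lower the mRNA, so these values separate the genotypes but do not measure the protein. All values are relative to the other genes of a library, and in bulk samples fewer cells with a transcript and less of it per cell cannot be told apart.

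The mRNA of 2 of the 8 members changed. NANOS1 mRNA was 2.36-fold lower and RC3H1 mRNA 1.68-fold higher in XRN1-null cells, while the mRNAs of PUM2, ZFP36L1, ZFP36L2, RC3H2, ELAVL1 and KHSRP did not pass the test. Over all genes 22.9% were called higher and 23.2% lower in mRNA, so 1 member of 8 in either direction was no more than the background. At an unadjusted p under 0.05 there were 4 of the 8 members and 69.9% of all genes. The median log2 fold change was -0.10 over the members and -0.01 over all genes.

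**Figure D1:**
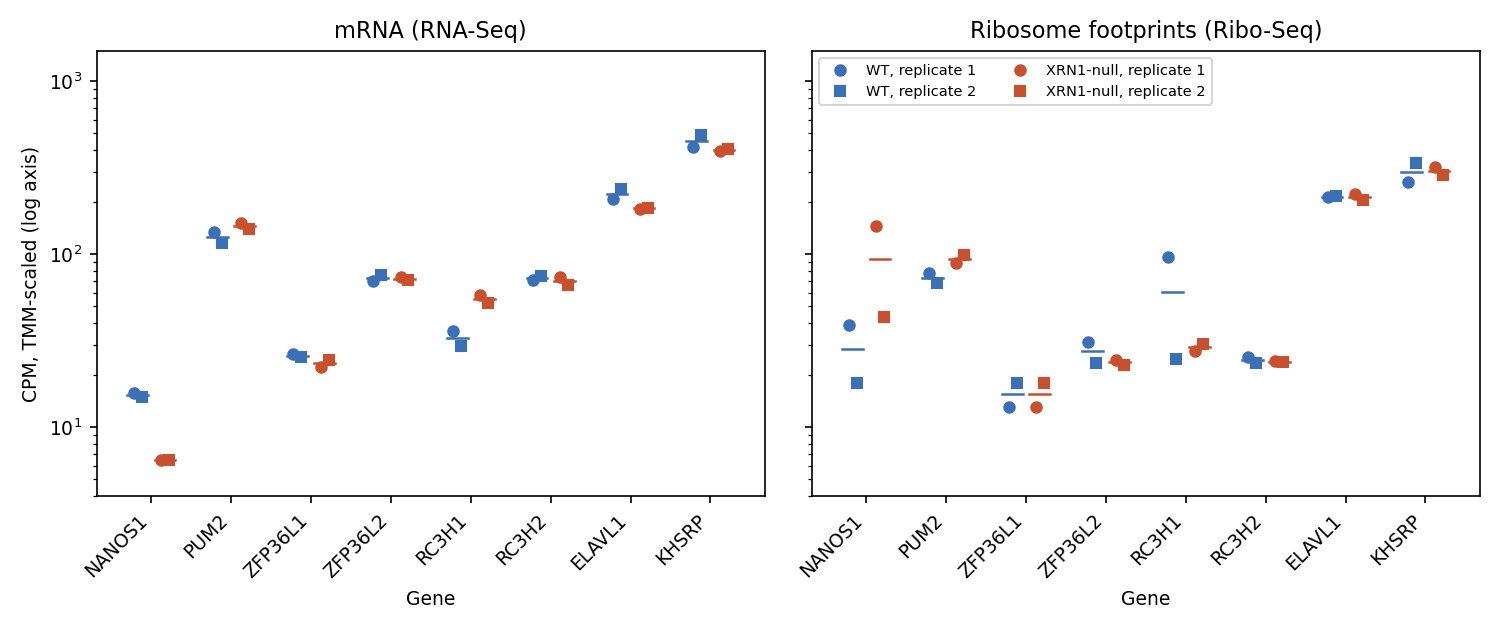
CPM of each member on a log axis in the 4 RNA-Seq libraries (left) and the 4 Ribo-Seq libraries (right), with circles for replicate 1, squares for replicate 2 and a bar for the mean of each genotype. The NANOS1 libraries of the 2 genotypes are apart in opposite directions in the 2 assays, and WT Ribo-Seq replicate 1 of RC3H1 lies at 96.9 CPM, far above the other 3 footprint values of that gene.

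NANOS1, which recruits the deadenylase to Pumilio-bound mRNAs, is a gene of 1 exon (chr10:120789226-120793242, plus strand, GRCh37) with a coding sequence of 876 nt and a 3′ UTR of 3050 nt. Its mRNA was at 15.8 and 14.9 CPM in the WT libraries and at 6.48 and 6.50 CPM in the XRN1-null libraries. Both XRN1-null values lay below both WT values, as for 43.7% of all genes. The replicates within a genotype were close to each other. The log2 fold change was -1.24 (SE 0.10, FDR 4.62e-05).

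NANOS1 footprints went the other way. They were at 39.1 and 17.9 CPM in WT and at 146 and 43.4 CPM in XRN1-null libraries, so the genotypes did not overlap, as for 32.1% of all genes in that direction. On log2(CPM + 0.5) values, XRN1-null replicate 1 was 3.33-fold above replicate 2, the largest difference between replicates among the 10105 genes in that group. The raw counts behind it were 586 in replicate 1 and 139 in replicate 2, against 75 and 78 in WT. The log2 fold change in RPF was 1.89 (SE 0.47), and with an FDR of 0.0213 it did not pass the threshold.

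The size of the footprint change of NANOS1 depended on the libraries used. Without XRN1-null Ribo-Seq replicate 1 the log2 fold change was 0.72 (SE 0.26, FDR 0.0737), with a sole XRN1-null footprint library assumed to vary like the WT ones. Without XRN1-null replicate 2 it was 2.45 (FDR 2.62e-14), without WT replicate 1 it was 2.45 (FDR 9.25e-21), and without WT replicate 2 it was 1.33 (FDR 2.41e-07). All 5 estimates were positive and they ranged from 0.72 to 2.45, and 3 of the 4 with a library left out passed the threshold. Calls in RPF over all genes also rose without a WT library, to 1295 without replicate 1 and 2369 without replicate 2, against 179 with all libraries, and were 156 and 170 without an XRN1-null one.

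Footprints per mRNA, the translational efficiency (TE), combined these opposite movements. The ratio of mean footprint CPM to mean mRNA CPM of NANOS1 was 1.86 in WT and 14.6 in XRN1-null cells. Taking each footprint library over each mRNA library of the same genotype, it lay between 1.14 and 2.62 in WT and between 6.68 and 22.5 in XRN1-null cells. The interaction of assay and genotype, which is the test of this difference, gave a log2 change of 3.19 (SE 0.60, FDR 0.00766), above the threshold of 0.005. Without XRN1-null Ribo-Seq replicate 2 the TE change was 3.77, and without XRN1-null Ribo-Seq replicate 1 it was 2.02. Each of these fits had 1 XRN1-null footprint library left. Only 0.0495% of all genes were called higher in TE.

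The last 61 bases of NANOS1 overlap the end of EIF3A, a translation initiation factor gene on the opposite strand, and the use of strand in counting is not given in the sources used here. EIF3A mRNA was at 305 and 359 CPM in WT and at 611 and 591 CPM in XRN1-null libraries, a log2 fold change of 0.86 (FDR 1.22e-04). EIF3A footprints were at 308 and 399 CPM in WT and at 588 and 636 CPM in XRN1-null libraries. The log2 fold change of EIF3A in RPF was 0.78 (FDR 0.00713), in the same direction as that of NANOS1, whereas in mRNA the directions differed. The part of reads from EIF3A in the NANOS1 counts was not tested.

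**Figure D2:**
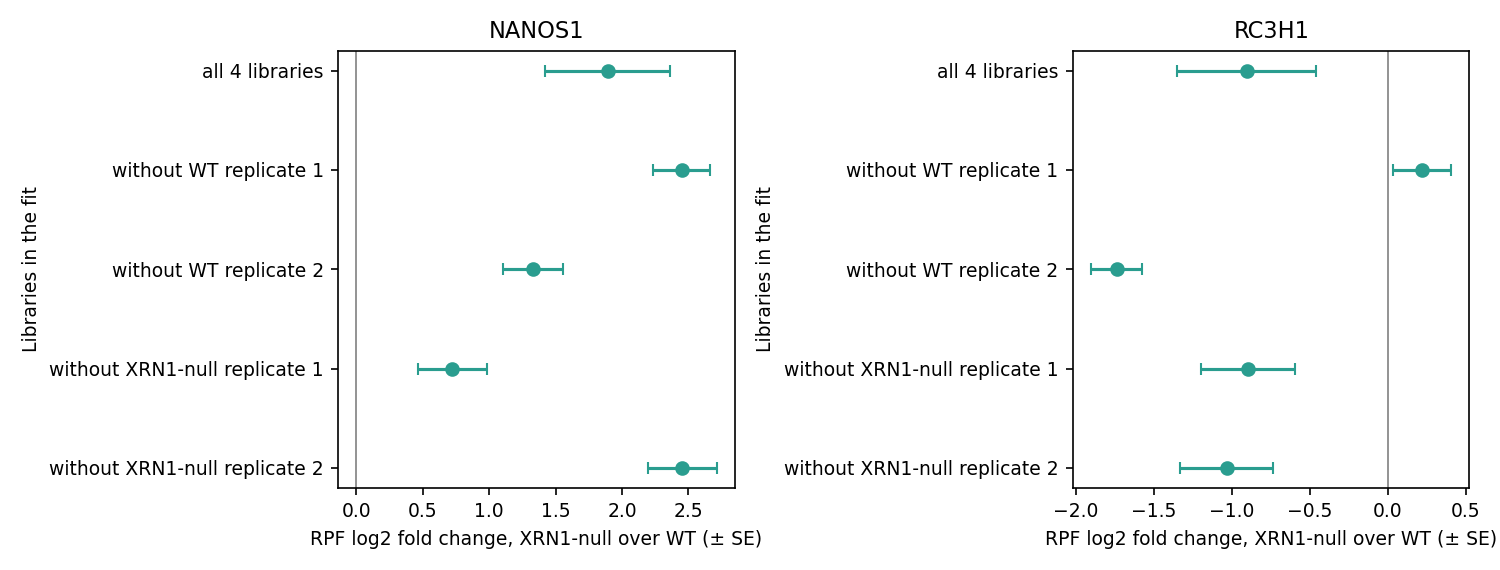
Log2 fold change in RPF (XRN1-null over WT, with SE as bars) of NANOS1 (left) and RC3H1 (right) from all 4 Ribo-Seq libraries and with each left out in turn. NANOS1 stays above 0 and drops to 0.72 without XRN1-null replicate 1, and RC3H1 moves from below 0 to 0.22 without WT replicate 1.

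RC3H1 (Roquin-1), a CCCH zinc finger protein that brings the deadenylase to mRNAs with decay stem-loops, rose in mRNA. The gene lies at chr1:173900222-173991495 on the minus strand (GRCh37), with 20 exons in the transcript used. Its mRNA was at 36.1 and 29.3 CPM in WT and at 57.8 and 52.1 CPM in XRN1-null libraries. The genotypes did not overlap, as for 41% of all genes in that direction. The log2 fold change was 0.75 (SE 0.11, FDR 6.09e-04), and it remained between 0.60 and 0.93 and past the threshold when each RNA-Seq library was left out in turn.

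RC3H1 footprints did not change beyond the spread of the replicates. They were at 96.9 and 24.8 CPM in WT and at 27.6 and 30.3 CPM in XRN1-null libraries, so the genotypes overlapped and only WT replicate 1 was high. Over all genes, XRN1-null libraries lay below the WT ones in RPF for 32.3%. On log2(CPM + 0.5) values, the difference between the WT replicates was 3.85-fold, the 5th largest among the 10105 genes in that group. This value rested on 186 counts in the library with the lowest total. The log2 fold change was -0.90 (SE 0.45, FDR 0.180). Without WT replicate 1 it was 0.22 (SE 0.19, FDR 0.422), and without WT replicate 2 it was -1.74 (SE 0.16, FDR 2.26e-18), so the direction was decided by a single library.

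The TE of RC3H1 rested on the same library. The ratio of mean footprint to mean mRNA CPM was 1.86 in WT and 0.526 in XRN1-null cells, and in WT it ranged from 0.686 to 3.30 over the pairs of libraries. The log2 change in TE was -1.58 (SE 0.53, FDR 0.0970). It was -0.53 (FDR 0.192) without WT Ribo-Seq replicate 1 and -2.48 (FDR 1.02e-04) without WT Ribo-Seq replicate 2. The paralogue RC3H2 (Roquin-2), which overlaps RC3H1 in function, had mRNA at 71.1 and 74.6 CPM in WT and 73.8 and 66.3 CPM in XRN1-null libraries, and the log2 fold change of -0.06 (SE 0.07) had an interval of 2 SE from -0.21 to 0.09. RC3H2 footprints lay between 23.7 and 25.5 CPM in all 4 libraries.

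**Figure D3:**
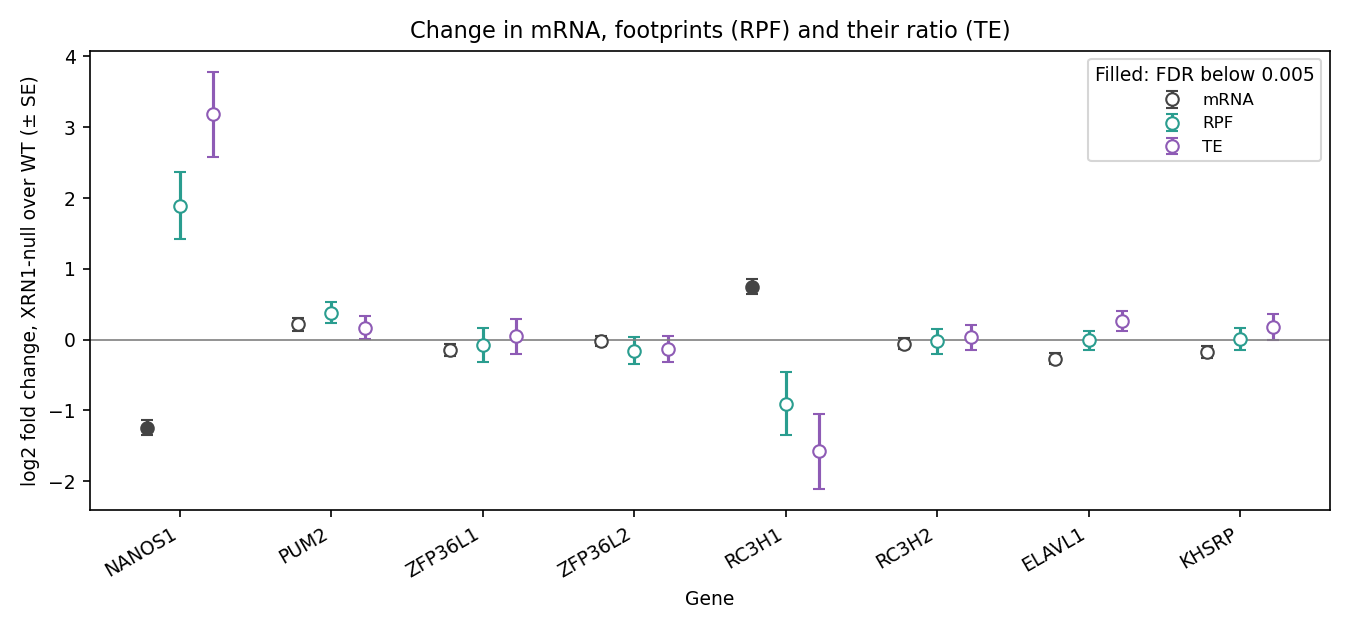
Log2 fold change of each member (XRN1-null over WT) in mRNA, RPF and TE, with SE as bars and filled symbols for an FDR below 0.005. The filled symbols are the mRNA values of NANOS1 (-1.24) and RC3H1 (0.75).

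No member was called in RPF or in TE in the main fits, which did not use the replicate numbers. Over all genes 0.633% were called higher and 1.14% lower in RPF, and 1.78% were called lower in TE. At an unadjusted p under 0.05 there were 2 of the 8 members in RPF (NANOS1 and PUM2), against 33% of all genes, and 2 in TE (NANOS1 and RC3H1), against 23.3%. DESeq2 called 0 members in RPF and 0 in TE, whereas edgeR's likelihood ratio test called 1 in each, which was NANOS1. That test called 469 genes higher in RPF and 71 in TE. Fits with blocks by replicate number called NANOS1 and RC3H1, as given in the last section. The members' median log2 change was -0.02 in RPF and 0.11 in TE, against -0.00 and 0.01 over all genes.

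PUM2, which binds the Pumilio element and represses mRNAs through the deadenylase, was higher in every XRN1-null library in both assays but passed the threshold in neither. Its mRNA was at 135 and 116 CPM in WT and at 152 and 140 CPM in XRN1-null libraries, a log2 fold change of 0.22 (SE 0.09, FDR 0.0616). Its footprints were at 77.6 and 68.2 CPM in WT and at 89.4 and 99.3 CPM in XRN1-null libraries, a log2 fold change of 0.38 (SE 0.14, FDR 0.0898). XRN1-null libraries lay above the WT ones for 41% of all genes in mRNA and for 32.1% in RPF. Without WT RNA-Seq replicate 1 the mRNA change of PUM2 was 0.35, and without WT RNA-Seq replicate 2 it was 0.11. Without WT Ribo-Seq replicate 1 the RPF change was 0.47, and without WT Ribo-Seq replicate 2 it was 0.29. Each of these fits had 1 WT library left in the assay. The TE of PUM2 changed by 0.17 (SE 0.17), with an interval of 2 SE from -0.16 to 0.50.

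The members of the TTP family stayed within narrow limits in mRNA. ZFP36L1 mRNA was at 26.6 and 25.3 CPM in WT and at 22.4 and 24.6 CPM in XRN1-null libraries (log2 fold change -0.14, SE 0.08, FDR 0.161). ZFP36L2 mRNA was at 70.2 and 76.1 CPM in WT and at 73.7 and 71.0 CPM in XRN1-null libraries, and its log2 fold change of -0.02 (SE 0.07) had an interval of 2 SE from -0.15 to 0.12. Both genes encode zinc finger proteins that bind AU-rich elements and recruit the deadenylase. ZFP36L1 footprints were at 13.0 and 18.1 CPM in WT and at 13.2 and 18.1 CPM in XRN1-null libraries. ZFP36L2 footprints were at 31.3 and 23.7 CPM in WT and at 24.6 and 22.8 CPM in XRN1-null libraries. These footprint values rested on between 25 and 103 counts per library, and the intervals of 2 SE were wide, from -0.56 to 0.40 for ZFP36L1 and from -0.53 to 0.22 for ZFP36L2 on the log2 scale.

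ELAVL1 and KHSRP were the most abundant members, and their mRNAs were slightly lower in both XRN1-null libraries. ELAVL1 mRNA was at 208 and 237 CPM in WT and at 184 and 185 CPM in XRN1-null libraries. Its log2 fold change was -0.27 (SE 0.08, FDR 0.0161), and its TE changed by 0.26 (SE 0.14, FDR 0.302). KHSRP mRNA was at 418 and 488 CPM in WT and at 397 and 407 CPM in XRN1-null libraries (log2 fold change -0.17, SE 0.08, FDR 0.101). XRN1-null libraries lay below the WT ones in mRNA for 43.7% of all genes. ELAVL1 was called lower with an FDR of 6.79e-08 without WT RNA-Seq replicate 1 and with an FDR of 8.37e-04 without WT RNA-Seq replicate 2, and was not called without either XRN1-null RNA-Seq library (FDR 0.132 and 0.116). Calls over all genes moved likewise, from 4657 with all RNA-Seq libraries to 6309 and 6799 without a WT library and 2745 and 2749 without an XRN1-null one. The KHSRP change was -0.26 (FDR 9.84e-07) without WT RNA-Seq replicate 1 and -0.06 (FDR 0.164) without WT RNA-Seq replicate 2. Footprints of ELAVL1 lay between 205 and 222 CPM and those of KHSRP between 261 and 339 CPM, with the genotypes overlapping for both genes.

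Per length, the levels of the members spanned a wide range. FPKM were computed from the counts, the TMM-scaled totals and the gene width of the table, which for NANOS1 is that of the whole transcript, so that footprint values per length include untranslated bases. In RNA-Seq of WT cells KHSRP was highest at 139 ± 15.0 FPKM (SD, n = 2), followed by ELAVL1 at 36.7 ± 3.38, ZFP36L2 at 19.8 ± 1.13, PUM2 at 19.3 ± 2.06, RC3H2 at 17.4 ± 0.595, ZFP36L1 at 6.42 ± 0.216, NANOS1 at 3.82 ± 0.157 and RC3H1 at 2.94 ± 0.433. Of these neighbours, only ZFP36L2 and PUM2 had overlapping replicates. In RNA-Seq of XRN1-null cells NANOS1 was last at 1.62 ± 0.0041 FPKM, below RC3H1 at 4.94 ± 0.363. The width given for RC3H2 was 4198 bases, whereas its reference transcript has 8964. It was 3250 against 4276 bases for KHSRP and 4040 against 3017 for ZFP36L1. The differences were smaller for PUM2, RC3H1 and ELAVL1. Levels per length therefore depend on the transcript model.

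In Ribo-Seq the order was the same at the top, with KHSRP at 92.3 ± 16.8 and ELAVL1 at 35.5 ± 0.295 FPKM in WT cells. Below PUM2 (11.2 ± 1.02 FPKM), the replicates of each neighbouring pair among ZFP36L2, NANOS1, RC3H2, RC3H1 and ZFP36L1 overlapped in WT, at means between 3.86 and 7.43 FPKM. In XRN1-null cells NANOS1 ranked behind KHSRP and ELAVL1 only, at 23.5 ± 18.0 FPKM, and its replicates overlapped with those of ELAVL1 and of PUM2. Footprints per mRNA of ZFP36L2 and RC3H2 were low, at 0.376 and 0.338 for WT cells and at 0.327 and 0.341 for XRN1-null cells, against medians over all genes of 0.820 and 0.798.

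**Figure D4:**
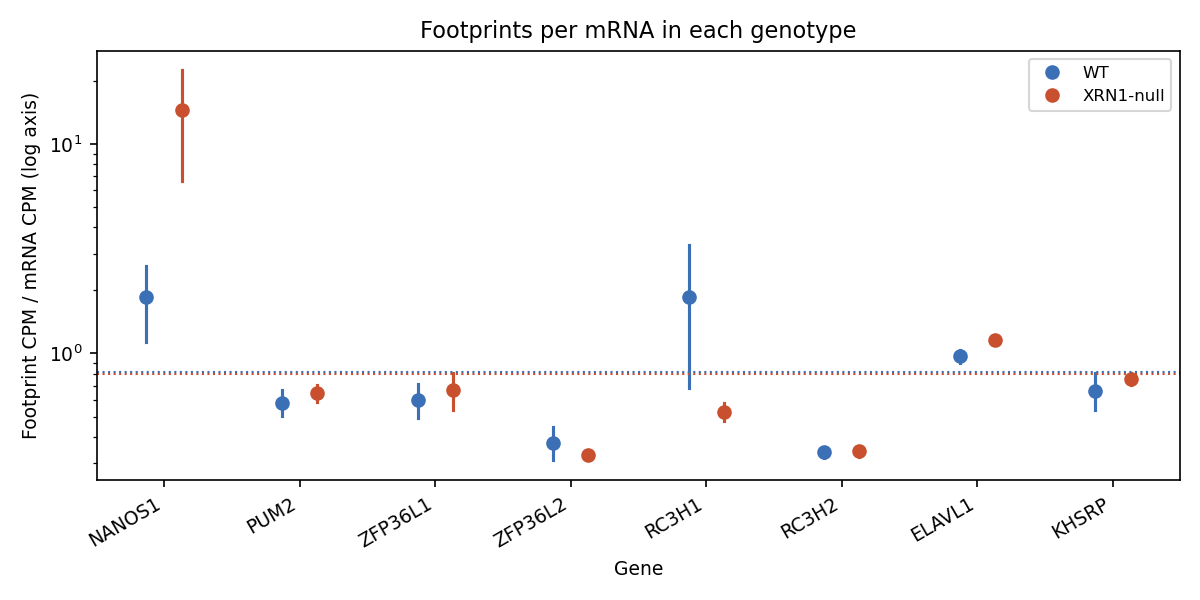
Ratio of footprint CPM to mRNA CPM of each member in each genotype on a log axis, with points for the ratio of means, lines from the lowest to the highest ratio over pairs of libraries and dotted lines for the median over all genes (0.820 in WT, 0.798 in XRN1-null). NANOS1 in XRN1-null cells lies between 6.68 and 22.5 and WT RC3H1 between 0.686 and 3.30, the widest ranges shown.

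Of 11 listed relatives and partners of the members 7 were in the table, and 1 of these fell in mRNA, where 23.2% of all genes did, with 0 called in RPF (4 at an unadjusted p under 0.05, against 33% of all genes) and 0 in TE (2 at that level, against 23.3%), and with 0 called there by DESeq2 or the likelihood ratio test. MAPKAPK2, the kinase that phosphorylates TTP, fell from 115 and 116 CPM to 79.5 and 81.7 CPM (log2 fold change -0.52, SE 0.06, FDR 2.35e-04). The call of MAPKAPK2 was lost without XRN1-null RNA-Seq replicate 1 (-0.50, FDR 0.00566). The median log2 fold change of the list was 0.02 in mRNA, 0.44 in RPF and 0.28 in TE.

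Other proteins that bind such elements gave 2 rises and 1 fall in mRNA among the 8 of 14 in the table. In RPF and in TE there were 0 calls by edgeR's quasi-likelihood test (4 and 2 at an unadjusted p under 0.05) or DESeq2. The likelihood ratio test called 1 higher in RPF, of 469 over all genes, and 2 lower in TE, of 596. Over all genes the quasi-likelihood test called 22.9% higher and 23.2% lower in mRNA. An unadjusted p under 0.05 was found for 33% in RPF and 23.3% in TE. TIA1, a translational repressor that binds U-rich elements, rose from 63.5 and 60.3 CPM to 101 and 102 CPM in mRNA (log2 fold change 0.71, SE 0.06, FDR 7.36e-05). UNK, an RNA-binding zinc finger protein, rose by 0.50 on the log2 scale (FDR 3.65e-04), and SAMD4B, a Smaug homologue, fell by 0.54 (FDR 2.43e-04). Just outside the threshold were SAMD4B without XRN1-null RNA-Seq replicate 1 (-0.50, FDR 0.00672) and UNK without replicate 2 (0.49, FDR 0.00531). The TIA1 footprints lay between 50.5 and 65.5 CPM in all 4 libraries, and its TE changed by -0.72 with an FDR of 0.0193. The median log2 fold change of the list was 0.17 in mRNA, 0.15 in RPF and -0.05 in TE.

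The CCR4-NOT complex, the deadenylase that most members recruit, had 11 of 12 listed genes in the table. In mRNA 3 rose, 1 fell and 7 did not pass the test, against 22.9% higher and 23.2% lower over all genes, and 10 of the 11 had an unadjusted p under 0.05, against 69.9% of all genes. DESeq2 called 5 higher and 3 lower and the likelihood ratio test 5 and 4. Over all 10105 genes DESeq2 called 2691 higher and 2443 lower and the likelihood ratio test 2921 and 2964. CNOT10, a subunit of the complex's amino-terminal module, rose from 68.0 and 77.7 CPM in WT to 114 and 116 CPM in XRN1-null libraries (log2 fold change 0.66, SE 0.08, FDR 2.55e-04). CNOT4, a ubiquitin ligase that binds the complex, rose by 0.59 on the log2 scale (FDR 3.38e-04), and CNOT2, part of the NOT module, was the other gene that rose. CNOT11, the partner of CNOT10 in the complex, fell from 99.9 and 102 CPM to 78.2 and 82.9 CPM (log2 fold change -0.33, SE 0.07, FDR 0.00294). The calls of CNOT11 and CNOT2 were lost without either XRN1-null RNA-Seq library, with an FDR of 0.0724 and 0.0256 for CNOT11 and of 0.0433 and 0.0307 for CNOT2 without replicates 1 and 2, and that of CNOT11 also with library totals (FDR 0.00710). With 0 called in RPF and 0 in TE by edgeR's quasi-likelihood test and DESeq2, 3 of the 11 subunits had an unadjusted p under 0.05 in each. The shares of all genes at that level were 33% in RPF and 23.3% in TE. The likelihood ratio test called 1 subunit lower in RPF, of 596 over all genes, and 0 in TE. The median log2 fold change of the subunits was -0.04 in mRNA, 0.14 in RPF and 0.04 in TE.

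Among genes known as targets of the TTP family, Pumilio or Roquin, 16 of 26 were in the table. In mRNA 4 rose, 6 fell and 6 did not pass the test, with a median log2 fold change of -0.07, where 22.9% of all genes were called higher and 23.2% lower. DESeq2 called 5 higher and 7 lower and the likelihood ratio test 4 and 7. Among all 10105 genes the DESeq2 calls were 2691 higher and 2443 lower, and those of the likelihood ratio test 2921 and 2964. REL, a transcription factor gene known as a Roquin target, rose from 16.3 and 17.0 CPM in WT to 34.3 and 29.4 CPM in XRN1-null libraries (log2 fold change 0.94, SE 0.10, FDR 1.45e-04). HIF1A, encoding the oxygen-regulated transcription factor, rose by 0.73 (SE 0.10, FDR 4.23e-04). CCND1, encoding cyclin D1, fell from 53.3 and 60.9 CPM to 22.0 and 19.3 CPM (log2 fold change -1.47, SE 0.10, FDR 2.14e-05). CDKN1A, encoding the cell cycle inhibitor p21, fell by 1.24 (SE 0.09).

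CCND1 and CDKN1A were also the 2 targets that fell in RPF, where 0.633% of all genes were called higher and 1.14% lower. DESeq2 and the likelihood ratio test each called 1 target higher and 3 lower in RPF. Over all 10105 genes DESeq2 called 98 higher and 120 lower there, and the likelihood ratio test 469 and 596. HIF1A footprints had a log2 fold change of 0.93 (FDR 0.00825 in the quasi-likelihood test). Footprints of CCND1 were at 22.4 and 26.2 CPM in WT and at 6.70 and 6.87 CPM in XRN1-null libraries (log2 fold change -1.86, SE 0.23, FDR 0.00121), and those of CDKN1A were at 42.2 and 37.7 CPM and at 14.2 and 14.7 CPM (log2 fold change -1.45, SE 0.18, FDR 0.00121). Their changes in TE, -0.41 and -0.21, did not pass the test. ATXN1, a Pumilio target that encodes ataxin-1, was the only target called in TE, where 1.78% of all genes were called lower and 0.0495% higher. Its mRNA rose from 18.2 and 17.0 CPM to 25.2 and 24.8 CPM while its footprints were at 78.7 and 53.8 CPM in WT and at 32.0 and 32.5 CPM in XRN1-null libraries, and its TE fell by 1.47 on the log2 scale (SE 0.20, FDR 0.00130). This TE call was lost without XRN1-null RNA-Seq replicate 1 (FDR 0.00560), XRN1-null Ribo-Seq replicate 1 (FDR 0.0276) or replicate 2 (FDR 0.0186), at log2 changes between -1.46 and -1.48, and the mRNA call was lost without either XRN1-null RNA-Seq library (FDR 0.00993 and 0.00763). The median log2 change of the targets was -0.06 in RPF and 0.06 in TE.

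Genes whose 3′ UTRs hold the elements differed little from those without in mRNA. The median log2 fold change was 0.03 over the 3341 genes with the AU-rich heptamer and -0.04 over the 5970 without it, and 0.01 over the 2860 genes with the Pumilio element and -0.03 over the 6451 without it. In RPF the medians were 0.08 and -0.05 for the heptamer and 0.09 and -0.04 for the Pumilio element. Calls in mRNA divided into 25.1% higher and 19.1% lower with the heptamer and 21.5% higher and 25.3% lower without it.

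Genes with the elements also had longer 3′ UTRs, with a median of 2585 nt with the heptamer and 845.5 nt without it. In 3 classes of equal size by 3′ UTR length, the RPF median of genes with the Pumilio element was 0.00, 0.08 and 0.12 from the shortest to the longest class, and that of genes without it was -0.10, -0.02 and 0.02. The mRNA medians in the same length classes were -0.11, -0.01 and 0.06 with the Pumilio element and -0.06, -0.00 and 0.01 without it, so which group had the higher mRNA median was not the same in each length class. For the heptamer it was the same in each, with mRNA medians of -0.03, 0.01 and 0.06 with it and -0.08, -0.01 and 0.01 without it, and RPF medians of -0.01, 0.06 and 0.10 with it and -0.10, -0.02 and 0.02 without it. Over the 1025 genes with 2 or more Pumilio elements, as in PUM2, RC3H1 and RC3H2, the median was 0.06 in mRNA and 0.17 in RPF. These are descriptions over genes, which are not independent replicates.

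**Figure D5:**
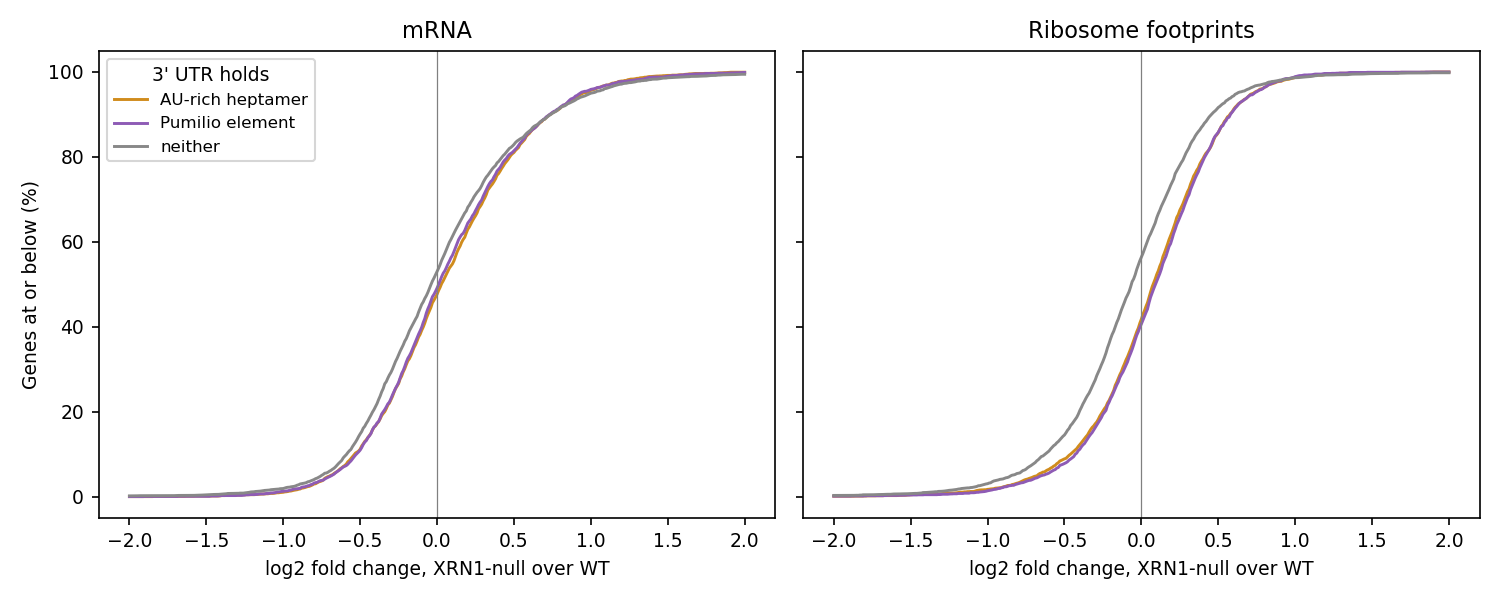
Cumulative share of genes (%) against log2 fold change (XRN1-null over WT) in mRNA (left) and RPF (right), for genes whose 3′ UTR holds the AU-rich heptamer, the Pumilio element or neither. The curves nearly coincide in mRNA, and in RPF the curve for neither element lies to the left, with a median of -0.06 against 0.08 and 0.09.

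For each member the gene with the most similar pattern was taken as the gene with the highest Pearson r of log2(CPM + 0.5) over the 8 libraries, centred within each assay. This was SNX7 for NANOS1 (r = 0.987), LHFP for PUM2 (0.980), NT5C3B for ZFP36L1 (0.963), TRIM8 for ZFP36L2 (0.977), ACP2 for RC3H1 (0.988), PCSK6 for RC3H2 (0.909), OGFOD1 for ELAVL1 (0.998) and CSNK2A1 for KHSRP (0.969). The libraries share genotype and depth, and each of these genes was the best of 10105, so that r describes the likeness only. For RC3H2, which varied little between libraries, no gene had an r above 0.95.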

How the data were processed

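Libraries of mRNA and of ribosome footprints came from WT or XRN1-null cells, 2 replicates in each of 4 groups named by the sample labels. Per the paper's methods, the authors discarded rRNA reads (Bowtie2), aligned the others to hg19 (TopHat2), selected footprint lengths by periodicity, counted reads per gene with QuasR and kept genes above an FPKM cutoff. The deposited table holds raw counts and a gene width, an other measurement made by the authors. The deposited fold changes, p-values and TE of the authors' own comparisons were not used. Use of strand and the annotation are not given in the sources used here.

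Counts were tested with edgeR 4.0.16 in R 4.3.3 with the quasi-likelihood test, TMM factors within each assay and Benjamini-Hochberg adjustment over 10105 genes. Each assay was fitted on genotype, and TE on assay, genotype and their interaction over 8 libraries. SE is the log2 fold change over the square root of F. Functions were tested on simulated data. Alternatives were RLE factors, library totals, at least 10 counts in every library, DESeq2 1.42.0, the likelihood ratio test, an FDR below 0.05, blocks and leaving out each library. Sequences came from GENCODE release 44 on GRCh37, the same assembly as hg19, with 92.1% of genes having a 3′ UTR sequence by symbol.

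The members, lists and named genes were chosen with earlier results of these data known. All members are named, with, from each list, the 2 largest rises and falls called in a contrast. The result of 1 gene among the relatives and partners is not reported here. CNOT2, EIF3A and the split by 3′ UTR length were added after values were seen. The alternatives for genes with and without 3′ UTR elements were chosen after seeing the data. Totals ranged from 1921641 to 38145433 counts. In RPF the SE was largest for NANOS1 (0.47) and RC3H1 (0.45), whose replicates differed most within a genotype. ZFP36L1, with the fewest footprint counts, had an SE of 0.24. Depth covers counting error only.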

Additional observations from a re-analysis of the deposited data

Results flagged for a closer look

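The TE of NANOS1 was marked because mRNA and footprints moved in opposite directions in every library. Both XRN1-null RNA-Seq libraries lay below both WT ones, and both XRN1-null Ribo-Seq libraries lay above both WT ones. Taken singly, the first was so for 43.7% and the second for 32.1% of all genes. The log2 change in TE was 3.19 (SE 0.60), and the test of this difference, edgeR's interaction of assay and genotype, gave an FDR of 0.00766, which did not pass 0.005. No group had 4 or more samples, so samples far from the rest of their group were not searched for.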

How the results depend on the processing

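The mRNA calls of NANOS1 (lower) and RC3H1 (higher) held under all alternatives run. An FDR below 0.05 gave 2 members lower in mRNA (ELAVL1 added), and 1 higher in RPF and 1 higher in TE (NANOS1), where calls over all 10105 genes were 3460, 714 and 103. The likelihood ratio test gave 1 higher in RPF and 1 higher in TE, again NANOS1, of 469 and 71 over all genes.

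Replicate numbers are shared between genotypes, but the labels do not say that a number marks a shared culture. Same-numbered replicates deviated together with r = 0.19 in RNA-Seq and 0.08 in Ribo-Seq over 2 pairs each, and the RNA-Seq and Ribo-Seq replicates of a genotype with r = 0.35 in WT and 0.03 in XRN1-null cells. The replicate block, which raised the RPF calls over all genes to 616 higher and 665 lower, from 64 and 115, gave 1 member higher (NANOS1, FDR 4.62e-16) and 1 lower (RC3H1, FDR 5.00e-05) in RPF and 1 higher in TE (NANOS1), and turned ZFP36L1 RPF to 0.0036. A block that joined each mRNA library to the footprint library with its genotype and number gave 1 higher (NANOS1) and 1 lower (RC3H1) in TE, of 55 and 435 over all genes, against 5 and 180 without it.

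Other reversals were of values near 0, none of them called. ZFP36L2 mRNA was 0.0013 with RLE factors, 0.041 with library totals and 0.0013 with DESeq2. ELAVL1 RPF was 0.0058 and RC3H2 TE -0.0019 with library totals, and RC3H2 TE was -0.011 with TMM over all 8 libraries.

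Leaving out each library in turn gave from 1 to 2 members higher and from 1 to 3 lower in mRNA, from 0 to 2 higher and from 0 to 1 lower in RPF, and from 0 to 1 higher and from 0 to 1 lower in TE, while calls over all genes moved from 4657 to between 2745 and 6799 in mRNA and from 179 to between 156 and 2369 in RPF. The log2 fold change ranged from -0.052 to 0.042 for ZFP36L2 and from -0.14 to 0.019 for RC3H2 in mRNA. In RPF it ranged from -0.30 to 0.25 for ZFP36L1, from -0.38 to 0.012 for ZFP36L2, from -1.74 to 0.22 for RC3H1, from -0.081 to 0.021 for RC3H2, from -0.069 to 0.042 for ELAVL1 and from -0.15 to 0.23 for KHSRP. In TE it ranged from -0.18 to 0.40 for ZFP36L1, from -0.37 to 0.027 for ZFP36L2 and from -0.043 to 0.11 for RC3H2. Calls in TE over all genes were 185 with all libraries. They fell when any XRN1-null library was left out, and moved either way when a WT library was left out. A group left with 1 library was assumed to vary like the others, so the counts of calls from these fits rest on that assumption. Each cause was not tested. Of 22 calls of genes in the lists, 10 held under all alternatives run, and none of the 22 changed direction. Medians of genes with and without the 3′ UTR elements moved by less than 0.1 under each alternative. Footprint counts of ZFP36L1, ZFP36L2 and RC3H2 limit what could be detected.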
